A study of Mus musculus with 18 samples.

Results

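Calmodulins, calmodulin-dependent kinases and neurogranin were followed through RNA of purified brain cell fractions, as 9 genes chosen by their symbol: *Calm2*, *Calm3*, *Camk2a*, *Camk2b*, *Camk2d*, *Camk2g*, *Camkk2*, *Camk4* and *Nrgn*. They make up 9 of the 35960 gene names and 93 of the 116873 transcripts in the count table, and the counts of all transcripts that carry a symbol were summed in each library. The mice were homozygous *Atxn2*-CAG100-KIN animals, which carry an expanded CAG repeat in *Atxn2*, a model of spinocerebellar ataxia type 2, and wild-type (WT) littermates, on a C57BL/6 background, all 10 months old. KIN and WT littermates were matched by sex, with 2 male pairs and 1 female pair, and the library labels do not give the sex. Each brain was dissociated and sorted with magnetic beads one step after the other, first with CD11b for microglia, then with ACSA-2 for astrocytes, and the rest was depleted of non-neuronal and CD31 positive cells to leave the neuronal fraction. This gave 18 libraries, 3 for each of the 3 fractions and both genotypes, made from rRNA-depleted total RNA to which a poly(A) tail was added, with a protocol (MACE-seq) that reads 1 fragment near the 3′ end of each RNA. Because the repeat is present in every cell of a KIN mouse, and the fractions were taken from the same brain in sequence, no group isolates an effect in 1 cell type.

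Calmodulin is a small protein that binds calcium and then switches on kinases, phosphatases and cyclases. Calcium/calmodulin-dependent kinase II (CaMKII) is a ring of subunits that is very abundant at excitatory synapses, where *Camk2a* and *Camk2b* encode the main neuronal subunits, while *Camk2d* and *Camk2g* encode subunits found in many tissues. *Camkk2* encodes an upstream kinase that phosphorylates other kinases, among them the nuclear kinase encoded by *Camk4* and AMP-activated kinase, and *Nrgn* encodes neurogranin, a dendritic protein that holds calmodulin when calcium is low.

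The calmodulin genes encode the same protein from different codons. *Calm2* lies at chr17:87740829-87754363 and *Calm3* at chr7:16649290-16658156 (GRCm39, the same assembly as mm39, minus strand for both), and 78 of 447 coding bases differed between *Calm2-201* and *Calm3-201* (identity 82.6%) with 0 amino acids changed. The windows below code for the first calcium-binding loop of both and were read from GENCODE transcripts, 5′ to 3′ on the coding strand, at chr17:87743307-87743336 and chr7:16651598-16651627. Capitals mark the bases that differ between the genes.
Calm2: gacaaggaCggGgatggGacAatAacAacA
Calm3: gacaaggaTggAgatggCacCatTacCacC

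The CaMKII genes also differ in their codons around the threonine whose autophosphorylation keeps the kinase active without calcium. This window is shown for *Camk2b* (chr11:5938985-5939014, minus strand), *Camk2d* (chr3:126591375-126591404, plus strand) and *Camk2g* (chr14:20810495-20810524, minus strand), all in coding exons, with capitals for bases not shared by all 3 genes.
Camk2b: atgcaCAgAcaGgagacTgtGgaAtgTCtG
Camk2d: atgcaCAgGcaGgagacTgtAgaCtgCTtG
Camk2g: atgcaTCgCcaAgagacGgtAgaGtgCTtA
The *Camk2b* window differed from *Camk2d* at 5 of 30 bases (identity 83.3%) with 1 amino acid changed, and from *Camk2g* at 10 of 30 (66.7%) with 0 changed, while *Camk2d* and *Camk2g* differed at 7 of 30 (76.7%) with 1 changed. *Camk2a* and *Camk4* are described by their counts alone.

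*Nrgn* (chr9:37452275-37464689, minus strand) is shown by a stretch from the start of its IQ motif, the site where neurogranin holds calmodulin, at chr9:37457360-37457389 in a coding exon. Capitals mark the codons of the first part of the motif.
Nrgn: ATCCAGGCGAGTTTCCGGGGCcacatggcg

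*Camkk2* (chr5:122869233-122917739, minus strand) is represented mostly by *Camkk2-202* (ENSMUST00000196742), a short transcript of 5 exons from chr5:122894339-122917739. It shares its upstream exons with the long transcript *Camkk2-201* (ENSMUST00000111668) and then reads on into sequence that *Camkk2-201* splices out. The windows below start at the same base, chr5:122894678, and capitals mark what follows the point where the transcripts part: for *Camkk2-202* the window ends at chr5:122894649 in its last exon, whereas the window of *Camkk2-201* crosses an exon junction and ends at chr5:122891879.
Camkk2-202: gctggcttcccacgtGAGTTTTGTGCACCT
Camkk2-201: gctggcttcccacgtCGCCCCCCACCACGA
The counts below that are given by transcript rest on how the authors' counting split reads over such shared exons. Of the 20-base windows of *Calm2-201*, 485 of 1197 also occurred in another annotated gene, against 233 of 2388 windows of *Calm3-201* and 671 of 1416 windows of *Camkk2-202*, so that levels of these transcripts may include reads that could have come from elsewhere.

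The libraries held between 761481 and 3296398 counts, the 10 most abundant transcripts took 75.8% to 85.4% of them, and the 9 genes together had between 38 and 438 counts in a library. Levels are given as CPM, the counts scaled to a common library size with TMM factors. They are compared within a gene only, since they are not corrected for length. The neuronal libraries were the shallowest, so that a few counts decide the level of a member there. *Atxn2* itself was at 10.9 ± 0.494 CPM in astrocytes of WT mice (SD, n = 3) and 9.21 ± 1.75 CPM in those of KIN mice, 9.90 ± 2.69 CPM and 6.89 ± 1.24 CPM in microglia, and 6.27 ± 3.60 CPM and 6.39 ± 1.49 CPM in neurons, which checks no label because the repeat changes the sequence of the gene and not its presence. Of the 10 neuron markers on a fixed list, 3 were higher in the WT neuronal fraction than in the WT astrocyte fraction (*Tubb3*, *Gad1* and *Stmn2*) and 4 were lower (*Snap25*, *Syt1*, *Slc17a7* and *Rbfox3*). *Tubb3*, a neuronal tubulin, had a log2FC of 3.23 (SE 0.34, adjusted *p* 1.36e-14, edgeR), whereas *Snap25*, a protein of the synaptic vesicle release machinery, had a log2FC of -2.08 (SE 0.50, adjusted *p* 0.000802). Against WT microglia 4 were higher (*Tubb3*, *Gad1*, *Map2* and *Stmn2*) and 0 of the 10 were called lower. The WT neuronal library of replicate 2 also stood apart with a summed oligodendrocyte marker level of 237 CPM, against 9.72 to 31.2 CPM in the other 5 libraries of this fraction.

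**Figure D1:**
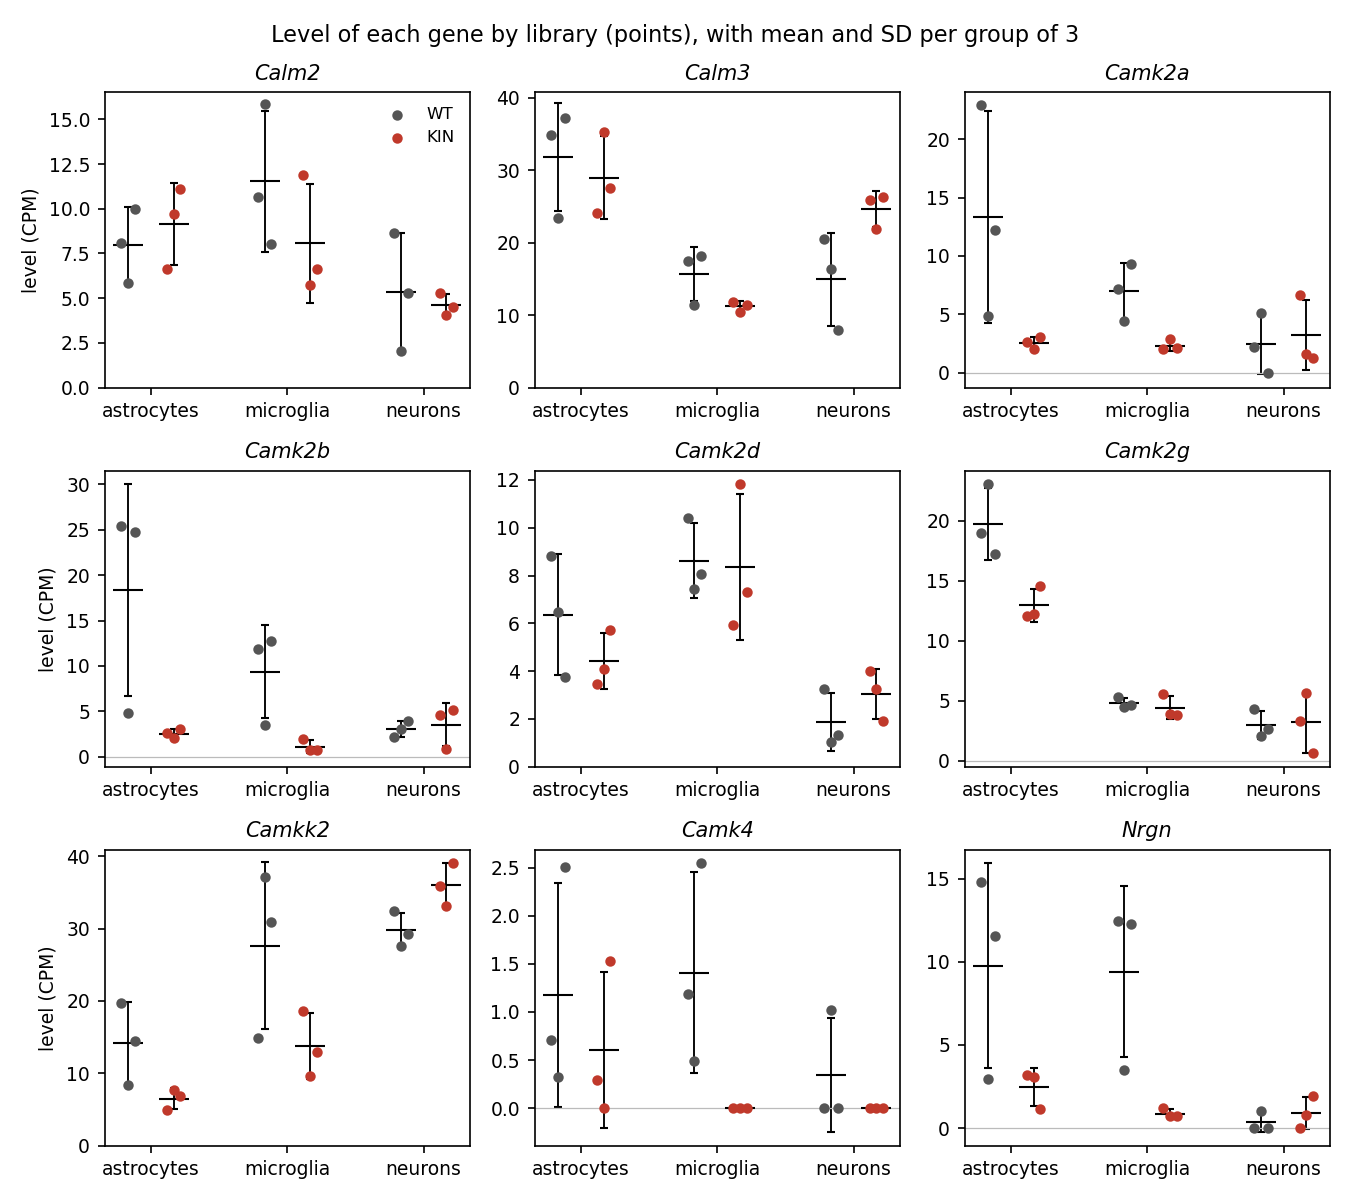
Level of each of the 9 genes in CPM (TMM-scaled, one panel per gene with its own axis) in the 18 libraries, by fraction and genotype (grey WT, red KIN). Points are libraries, and the horizontal line and whiskers are the mean and SD of 3 libraries. *Camk2a*, *Camk2b* and *Nrgn* are high in WT astrocyte and microglia libraries of replicates 1 and 3 and low in all KIN libraries of these fractions, and *Camkk2* is highest in neuronal libraries of either genotype and in 2 WT microglia libraries.

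The first question was where these genes are found in WT mice. Relative to all genes, whose median log2FC was -0.35 between WT neurons and WT astrocytes, -0.30 between WT neurons and WT microglia and 0.04 between WT astrocytes and WT microglia, the members had medians of -1.67, -1.40 and -0.04. Of the 9 members, all tested, 6 differed between WT neurons and WT astrocytes (called when the adjusted *p* did not exceed 0.05 and the log2FC was 1 or more in size, background 18.0% of 12305 genes), 3 between WT neurons and WT microglia (background 16.9%) and 1 between WT astrocytes and WT microglia (background 25.1%). A filter on low counts asked for at least 5 counts in at least 2 libraries of a fit. *Camk2a*, *Camk2b*, *Camk2g* and *Nrgn*, called lower in neurons than in astrocytes, passed it through glial libraries alone. So did *Camk2b*, *Camk2d* and *Nrgn*, called lower in neurons than in microglia. The numbers of calls for neurons thus rest mostly on genes that were high in glial libraries.

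*Nrgn* was lower in the WT neuronal fraction than in both glial fractions. Its level was 0, 1.02 and 0 CPM in the 3 WT neuronal libraries, but 14.8, 2.92 and 11.6 CPM in WT astrocyte libraries and 12.5, 3.46 and 12.3 CPM in WT microglia libraries. The groups did not overlap. Summed counts were 1 in WT neurons against 88 in WT astrocytes, a level 25.6 times lower with a 95% counting interval from 4.48 upward, and the log2FC was -4.44 (SE 0.91, adjusted *p* 6.27e-05, edgeR); against the 78 counts of WT microglia it was -4.48 (SE 0.91, adjusted *p* 5.46e-05). The 1 neuronal count came from WT replicate 2, the library that stood apart in oligodendrocyte markers. Without it *Nrgn* is at 0 in WT neurons and the fitted values, -7.47 and -7.51, are no measure of size. The smallest values without 1 library were -3.90 against astrocytes and -3.94 against microglia, and both calls were kept without each of the 9 WT libraries in turn (adjusted *p* up to 0.00403 and 0.00341).

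*Camk2a* and *Camk2b* had the same order of mean levels in WT mice, highest in astrocytes and lowest in the neuronal fraction. *Camk2b* was at 25.4, 4.87 and 24.7 CPM in WT astrocytes, 11.9, 3.46 and 12.7 CPM in WT microglia and 2.16, 3.07 and 3.99 CPM in WT neurons. The log2FC of neurons against astrocytes was -2.51 (SE 0.54, adjusted *p* 0.000143) and of neurons against microglia -1.64 (SE 0.58, adjusted *p* 0.0364). *Camk2a* was at 22.9, 4.87 and 12.2 CPM in WT astrocytes, 7.12, 4.45 and 9.32 CPM in WT microglia and 2.16, 5.12 and 0 CPM in WT neurons, with a log2FC of -2.26 (SE 0.57, adjusted *p* 0.00149) for neurons against astrocytes and -1.40 (SE 0.62, adjusted *p* 0.111) for neurons against microglia, which became -2.48 (adjusted *p* 0.0491) without WT neuronal replicate 2. Without WT astrocyte replicate 1 the *Camk2a* difference was -1.63 (adjusted *p* 0.0632), and the *Camk2b* difference from microglia was not called without any of 6 WT libraries in turn (adjusted *p* up to 0.165) or with DESeq2 (adjusted *p* 0.185). In both genes and fractions the second WT glial library was the lowest of its group.

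The subunits of wider distribution had other orders. *Camk2g* was at 19.8 ± 2.98 CPM (SD, n = 3) in WT astrocytes, 4.82 ± 0.465 CPM in WT microglia and 3.01 ± 1.18 CPM in WT neurons. It was higher in astrocytes than in microglia by a log2FC of 1.99 (SE 0.35, adjusted *p* 1.34e-06) and lower in neurons than in astrocytes by -2.66 (SE 0.49, adjusted *p* 9.15e-06), and the astrocyte libraries, between 17.2 and 23.0 CPM, did not overlap with any other WT library. *Camk2d* was at 8.62 ± 1.56 CPM in WT microglia, 6.35 ± 2.53 CPM in WT astrocytes and 1.86 ± 1.20 CPM in WT neurons. Neurons were below microglia by -2.17 (SE 0.63, adjusted *p* 0.00707; -1.82 and adjusted *p* 0.0674 without WT neuronal replicate 2), and astrocytes and microglia did not differ beyond their spread (-0.50, SE 0.37, adjusted *p* 0.358).

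*Camkk2* was the member with the opposite order. Its level was 32.4, 27.7 and 29.3 CPM in WT neurons, 14.8, 37.1 and 30.9 CPM in WT microglia and 19.7, 8.44 and 14.4 CPM in WT astrocytes. The neuronal libraries lay above every astrocyte library, with a log2FC of 1.12 (SE 0.35, adjusted *p* 0.0129), and overlapped with microglia (0.14, SE 0.34, adjusted *p* 0.832). Without WT astrocyte replicate 2 the difference from astrocytes was 0.91 (adjusted *p* 0.0869), without WT neuronal replicate 1 it was 1.06 (adjusted *p* 0.0626), and with DESeq2 it was 1.14 (adjusted *p* 0.0583). *Camk4* had at most 2.54 CPM in any library and 1 count in the 3 WT neuronal libraries together, against 11 in WT astrocytes and 11 in WT microglia, and differences between fractions were not detectable at this depth (adjusted *p* 0.433 to 0.855).

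Of the calmodulins, *Calm3* was at 31.8 ± 7.43 CPM (SD, n = 3) in WT astrocytes, 15.7 ± 3.76 CPM in WT microglia and 15.0 ± 6.39 CPM in WT neurons. Neurons were lower than astrocytes by -1.01 (SE 0.36, adjusted *p* 0.0327), a value at the fold threshold. It was not called without any of 7 WT libraries in turn (-1.04 to -0.75) or with DESeq2 (adjusted *p* 0.0571). The call was also lost with a mean count filter of 10, with the replicate number as a block and with KIN in place of WT libraries. Astrocytes were above microglia by 0.97 (SE 0.31, adjusted *p* 0.0118), just under that threshold. *Calm2* was at 11.5 ± 3.96 CPM in WT microglia, 7.99 ± 2.09 CPM in WT astrocytes and 5.34 ± 3.3 CPM in WT neurons, and no pair of fractions differed beyond the spread (adjusted *p* 0.106 to 0.494).

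The same fractions were then compared in KIN mice. In KIN mice neurons against astrocytes gave 0.26 (SE 0.57, adjusted *p* 0.772) for *Camk2a*, 0.44 (SE 0.56, adjusted *p* 0.593) for *Camk2b* and -1.41 (SE 0.81, adjusted *p* 0.183) for *Nrgn*. Of these, the interaction with genotype given further down was called for *Camk2b* and not for *Camk2a* or *Nrgn*. Against microglia, *Camk2b* was higher in KIN neurons by 1.65 (SE 0.65, adjusted *p* 0.0451), where it was lower in WT, but that interaction was not called (3.24, SE 0.88, adjusted *p* 0.152). *Camk2g* and *Camkk2* kept their direction between neurons and astrocytes in KIN mice, with -2.12 (SE 0.40, adjusted *p* 5.86e-06) and 2.46 (SE 0.28, adjusted *p* 9.26e-14), and against KIN microglia *Calm3* was higher in KIN neurons by 1.09 (SE 0.26, adjusted *p* 0.000502) and *Camkk2* by 1.35 (SE 0.25, adjusted *p* 2.19e-06). Neither was called between WT neurons and WT microglia, and neither interaction was called (adjusted *p* 0.506 and 0.443).

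The second question was what the expanded repeat changes within each fraction. In astrocytes 4 of the 8 members tested were lower in KIN and none was higher, where 8.85% of 11751 genes were called in either direction and 6.42% lower. The median log2FC was -0.90 over the 8 members and -0.01 over all genes, and 7 of 8 values were below 0. In 4 of the 8 genes tested (*Camk2a*, *Camk2b*, *Camk2g* and *Camkk2*) all 3 KIN libraries were lower than the lowest WT library, which was true of 14.1% of all genes tested. In microglia 3 of the 8 members tested were lower and none higher, where 1.52% of 10831 genes were called in either direction and 0.785% lower, with medians of -0.74 over the members and 0.00 over all genes. Of the 3, *Camk2b* (5, 2 and 2 counts in KIN) and *Nrgn* (3, 2 and 2) passed the filter on low counts through WT libraries alone. The number of calls there thus rests in part on genes that were high in WT. In 3 of the 8 tested (*Camk2a*, *Camk2b* and *Nrgn*) the KIN libraries lay below all WT libraries, against 7.53% of all genes tested. In neurons 6 members passed the filter and 0 were called by edgeR, 0 had an unadjusted *p* under 0.05 and 0 were called by DESeq2, where 0.0148% of 6765 genes were called. *Camk2d*, *Nrgn* and *Camk4* had too few counts to be tested there, and *Camk4* was tested in no fraction. In bulk fractions fewer cells of a type and less RNA per cell cannot be told apart.

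**Figure D2:**
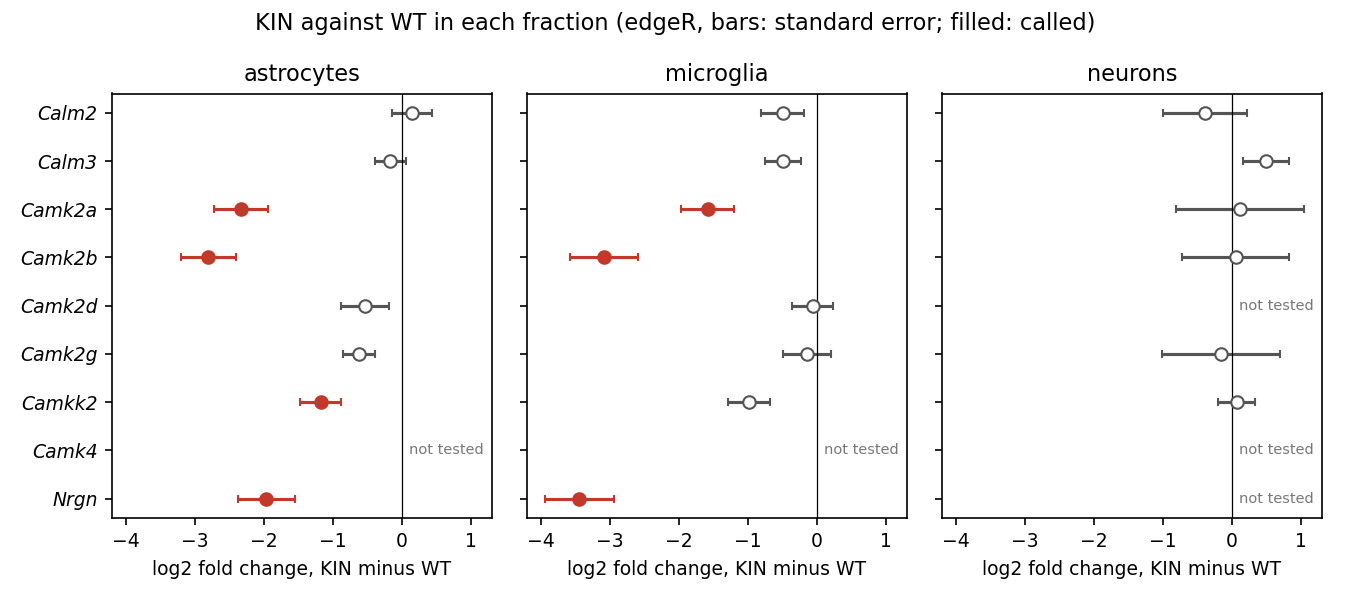
Log2 fold change of KIN against WT with its standard error for every member tested, by fraction (edgeR, 6 libraries per fraction); filled points are called (adjusted *p* not above 0.05, log2FC of 1 or more in size). Called members lie between -3.45 and -1.18 and are in the glial fractions only, while the neuronal values lie between -0.39 and 0.49 with errors up to 0.93.

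The neuronal CaMKII subunits fell in both glial fractions. *Camk2b* was at 25.4, 4.87 and 24.7 CPM in WT astrocytes and at 2.59, 2.05 and 3.06 CPM in KIN astrocytes. The KIN libraries were close together and the WT libraries were spread, with the second far below the others but still above all KIN libraries. The log2FC was -2.81 (SE 0.39, adjusted *p* 2.03e-06, edgeR), and it ranged from -3.26 to -2.52 when each library was left out in turn, with the call kept each time. In microglia *Camk2b* went from 11.9, 3.46 and 12.7 CPM to 1.98, 0.716 and 0.696 CPM, a log2FC of -3.08 (SE 0.49, adjusted *p* 0.000925), and the range on leaving out a library was -3.70 to -2.83.

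*Camk2a* was at 22.9, 4.87 and 12.2 CPM in WT and at 2.59, 2.05 and 3.06 CPM in KIN astrocytes. Again no KIN library reached the lowest WT library, and the log2FC was -2.34 (SE 0.39, adjusted *p* 3.21e-05; -2.73 to -1.73 on leaving out a library). In microglia it was at 7.12, 4.45 and 9.32 CPM in WT and at 1.98, 2.86 and 2.09 CPM in KIN. The groups did not overlap there either, with a log2FC of -1.58 (SE 0.39, adjusted *p* 0.0336). This value rested on most of the libraries: without any one of the 6 other than WT replicate 2 the adjusted *p* was between 0.102 and 0.229, with log2FC from -1.76 to -1.37, and with DESeq2 it was 0.276.

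*Nrgn* was lower in KIN as well. In astrocytes it was at 14.8, 2.92 and 11.6 CPM in WT and at 3.17, 3.07 and 1.15 CPM in KIN, so that the second WT library lay among the KIN libraries and the groups overlapped. The log2FC was -1.97 (SE 0.41, adjusted *p* 0.000691; -2.40 to -1.57 on leaving out a library, called each time). In microglia it was at 12.5, 3.46 and 12.3 CPM in WT and at 1.19, 0.716 and 0.696 CPM in KIN. The summed counts were 7 in KIN and 78 in WT, a level 11.8 times lower with a 95% counting interval of 5.45 to 30.3, and the log2FC was -3.45 (SE 0.51, adjusted *p* 0.000359). Both *Camk2b* and *Nrgn* in microglia were called under all 7 other processing settings that were tried and without each library. *Camk4* in microglia had 4, 1 and 6 counts in WT and 0 in KIN, at least 3.88-fold lower when KIN is set to a floor of 3 counts over the group, and it did not pass the filter for a test.

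The 3 genes *Camk2a*, *Camk2b* and *Nrgn* moved in the same libraries as the neuron markers. In the astrocyte fraction the markers summed to 128, 41.9 and 105 CPM in WT and to 36.0, 34.8 and 56.6 CPM in KIN, and 8 of 10 were called lower by edgeR and 2 of 10 by DESeq2, where edgeR called 8.85% of all genes. In the microglia fraction they summed to 61.4, 18.8 and 46.2 CPM in WT and to 10.3, 12.9 and 11.5 CPM in KIN, and 4 of 10 were called lower by edgeR and 0 by DESeq2, where edgeR called 1.52% of all genes. In the neuronal fraction the range was 109 to 167 CPM in WT and 134 to 194 CPM in KIN, with 0 of 7 tested markers called by edgeR, 0 at an unadjusted *p* under 0.05 and 0 by DESeq2. The second WT library was the lowest WT library both in the markers and in the 3 genes, in astrocytes and in microglia. As a percentage of the marker sum the 3 genes were at 41.9% ± 10.3 (SD, n = 3) in WT and 18.9% ± 5.39 in KIN astrocytes, 62.0% ± 11.6 in WT and 37.9% ± 10.6 in KIN microglia, and 4.48% ± 2.42 in WT and 4.59% ± 2.35 in KIN neurons. With 3 libraries against 3 no exact test of such a value can go below a *p* of 0.10, and the part of neuronal RNA in the change of the members was not tested. Astrocyte markers of the astrocyte fraction moved with the genotype too, from a sum of 493 to 728 CPM in WT to 277 to 300 CPM in KIN, with 3 of 7 called lower, whereas none of the 6 microglia markers was called in microglia, where they summed to 432 to 742 CPM in WT and 507 to 568 CPM in KIN. Markers of other cells moved in the microglia fraction as well. There astrocyte markers went from 22.3 to 27.5 CPM in WT to 15.5 to 17.9 CPM in KIN, with *Slc1a2* the 1 of 3 tested that was called lower, and oligodendrocyte markers from 19.9 to 26.4 CPM to 12.7 to 14.3 CPM without overlap, with 0 of 3 called. Endothelial markers overlapped, at 37.3 to 49.0 CPM in WT and 45.9 to 50.3 CPM in KIN, with *Cldn5* called lower. In the astrocyte fraction oligodendrocyte markers were at 291 to 462 CPM in WT and 458 to 468 CPM in KIN, with *Mog* called higher. Their part in the change of the members was not tested.

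**Figure D3:**
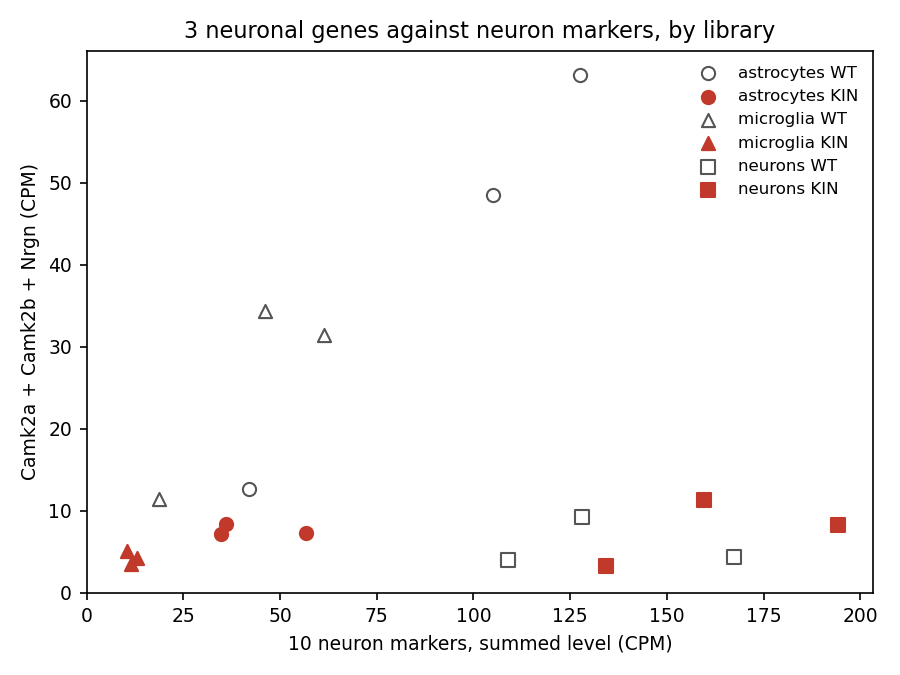
Summed level of *Camk2a*, *Camk2b* and *Nrgn* against the summed level of 10 neuron markers in each of the 18 libraries, both in CPM, with fraction by shape and genotype by fill (open WT, filled KIN). Glial libraries run from 3.48 CPM of the 3 genes at 11.5 CPM of markers to 63.1 CPM at 128 CPM, while the 6 neuronal libraries have 3.24 to 11.3 CPM at 109 to 194 CPM of markers.

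The CaMKII subunits of wider distribution did not pass the test where they were tested, *Camk2g* in 3 fractions and *Camk2d* in the 2 glial fractions. *Camk2g* in astrocytes was at 19.0, 23.0 and 17.2 CPM in WT and at 12.1, 12.3 and 14.5 CPM in KIN. The KIN libraries all lay below the WT libraries, but the log2FC of -0.62 (SE 0.24) had an adjusted *p* of 0.0731 in edgeR. By transcript, *Camk2g-203* (ENSMUST00000100837) had 15, 16 and 11 counts in WT and 5, 3 and 4 in KIN astrocytes and was called lower (-1.66, SE 0.47, adjusted *p* 0.0111), while *Camk2g-201*, the most counted transcript of the gene, was not (-0.15, SE 0.45, adjusted *p* 0.887). *Camk2g-203* was the 1 call among the 6 *Camk2g* transcripts tested, where 8.36% of all transcripts were called. It passed the filter on low counts through WT libraries alone, so that its call is a description and no support for the gene. In microglia *Camk2g* gave -0.14 (SE 0.35, adjusted *p* 0.948) and in neurons -0.16 (SE 0.85, adjusted *p* 0.994). *Camk2d* gave -0.54 (SE 0.35, adjusted *p* 0.353) in astrocytes and -0.06 (SE 0.30, adjusted *p* 0.978) in microglia, where 69 counts stood against 69.

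As a share of all CaMKII counts, *Camk2d* and *Camk2g* together held 49.3% ± 22.4 (SD, n = 3) in WT and 77.3% ± 2.53 in KIN astrocytes, 47.3% ± 11.8 in WT and 78.6% ± 3.76 in KIN microglia, and 47.0% ± 18.4 in WT and 48.8% ± 26.3 in KIN neurons. The share in the second WT astrocyte library, 75.2% (Wilson 95% interval 66.8 to 82.0), lay among the KIN libraries at 75.0%, 80.0% and 76.8%, whereas in microglia all KIN libraries lay above all WT libraries. Over both genotypes the share was 47.9% ± 20.3 (SD, n = 6) in neurons, 63.3% ± 20.9 in astrocytes and 63.0% ± 18.9 in microglia, and the fractions did not differ beyond their spread (two-sided exact permutation test, adjusted *p* over 6 comparisons of shares 0.331 for neurons against either other fraction and 0.963 for astrocytes against microglia). The spread over both genotypes includes the difference between them in the glial fractions. This test therefore cannot show that the fractions are alike within 1 genotype, which was not tested. The neuronal shares rest on 6 to 28 counts per library.

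The calmodulins themselves showed no KIN change past the test. *Calm3* gave -0.17 (SE 0.22, adjusted *p* 0.700) in astrocytes, -0.50 (SE 0.26, adjusted *p* 0.469) in microglia and 0.49 (SE 0.33, adjusted *p* 0.970) in neurons. In neurons *Calm3* was at 20.5, 16.4 and 7.98 CPM in WT and at 25.9, 21.8 and 26.3 CPM in KIN, above all WT libraries with library sizes scaled over all 18 libraries, but the groups overlapped when the 6 neuronal libraries were scaled on their own. On the first scaling *Calm3* and *Camkk2* were the 2 members with every KIN above every WT neuronal library, which was true of 11.7% of the genes tested. *Calm2* gave 0.14 (SE 0.29, adjusted *p* 0.822), -0.50 (SE 0.31, adjusted *p* 0.591) and -0.39 (SE 0.61, adjusted *p* 0.975) in the same order.

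The ratio of the calmodulin genes to each other differed between astrocytes and microglia. *Calm2* held 41.5% ± 10.4 (SD, n = 6) of the counts of *Calm2* and *Calm3* in microglia, 22.0% ± 3.47 in astrocytes and 21.3% ± 11.1 in neurons. All 6 microglia libraries, between 30.6% and 58.2%, lay above all 6 astrocyte libraries, between 18.9% and 28.7%. The difference of astrocytes from microglia was -19.5 percentage points (two-sided exact permutation test, *p* 0.00216, the smallest that 6 libraries against 6 allow, adjusted *p* 0.0130), neurons against microglia gave -20.1 points (adjusted *p* 0.0519) and neurons against astrocytes -0.65 points (adjusted *p* 0.963). When only the most counted transcript of each gene was used, the difference of astrocytes from microglia was -14.8 points with an adjusted *p* of 0.156. This test takes the libraries as independent although the fractions came from the same brains. With libraries paired by genotype and replicate number the adjusted *p* was 0.188, so that the call was lost; all 6 pairs went in the same direction, and 6 pairs allow no smaller *p*. The share had about the same mean in both genotypes of microglia, 42.2% ± 14.3 (SD, n = 3) in WT and 40.7% ± 8.07 in KIN.

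**Figure D4:**
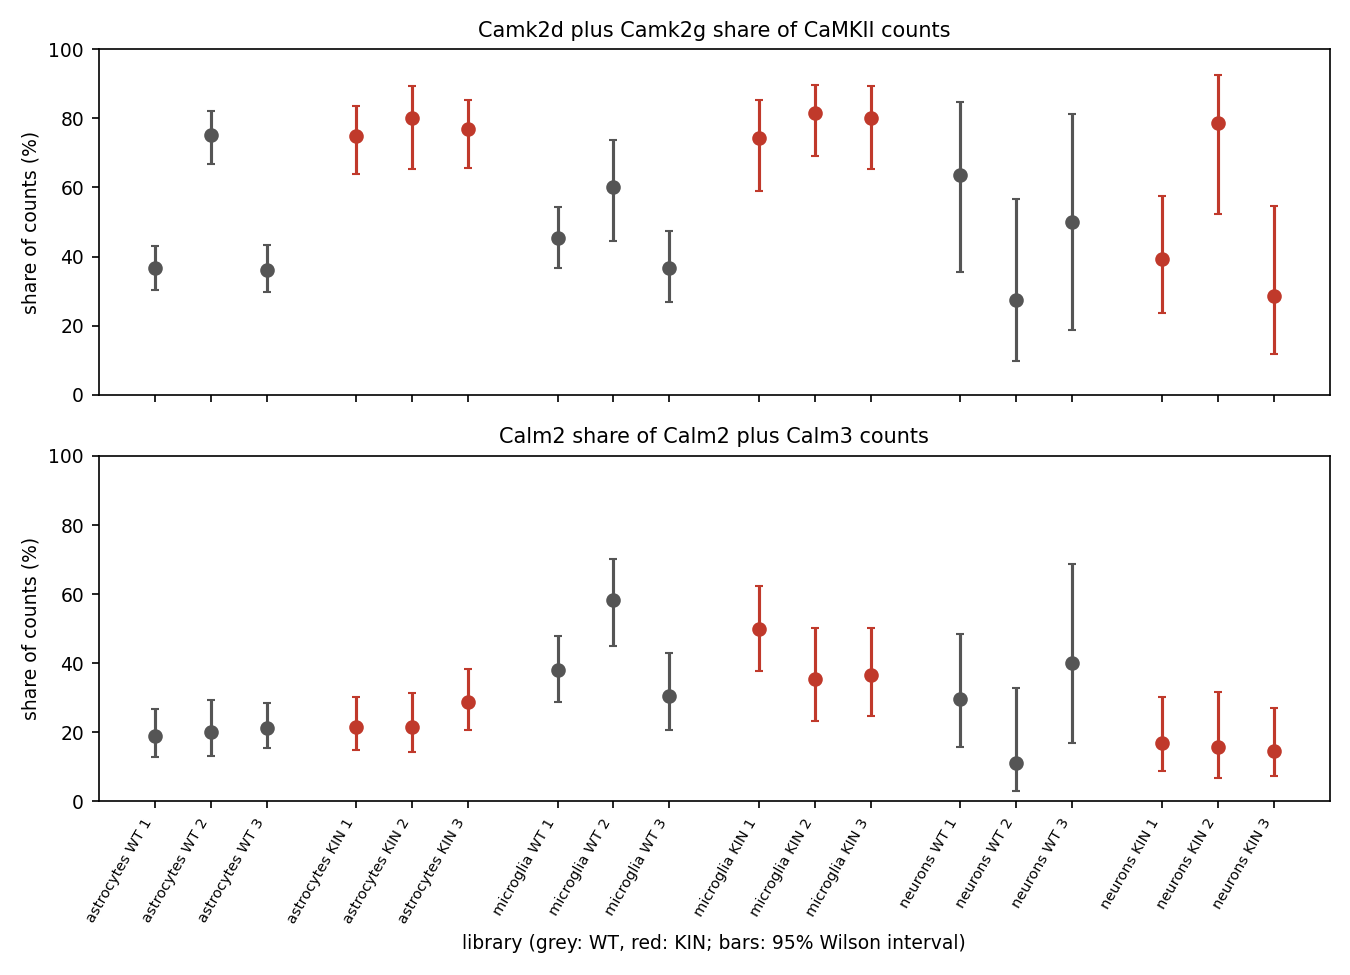
Share of *Camk2d* plus *Camk2g* in all CaMKII counts and share of *Calm2* in the counts of *Calm2* plus *Calm3*, in percent, for each of the 18 libraries by fraction and genotype (grey WT, red KIN), with Wilson 95% intervals that cover counting error only. The *Calm2* share of the 6 microglia libraries is 30.6% to 58.2% and that of the 6 astrocyte libraries 18.9% to 28.7%.

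*Camkk2* fell in KIN astrocytes. It was at 19.7, 8.44 and 14.4 CPM in WT and at 4.89, 7.67 and 6.89 CPM in KIN, so that the groups did not overlap but came close at the second WT library. The log2FC was -1.18 (SE 0.29, adjusted *p* 0.00477, edgeR). The call was lost with DESeq2 (-1.18, adjusted *p* 0.0807), without WT replicate 1 (-0.89, adjusted *p* 0.0943) and without KIN replicate 1 (-0.97, adjusted *p* 0.0742). In microglia it was at 14.8, 37.1 and 30.9 CPM in WT and at 18.6, 9.67 and 12.9 CPM in KIN, a log2FC of -0.98 (SE 0.31, adjusted *p* 0.105) with overlapping groups, which became -1.33 (adjusted *p* 0.0321) without WT replicate 1. In neurons it was at 32.4, 27.7 and 29.3 CPM in WT and at 35.9, 33.2 and 39.1 CPM in KIN, a log2FC of 0.07 (SE 0.27, adjusted *p* 0.992) with overlapping groups when the neuronal libraries were scaled on their own.

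Of the 11 *Camkk2* transcripts, 10 had a count and *Camkk2-202* held 472 of the 722 counts of the gene (65.4%). Its share of the gene was 92.4% ± 7.97 (SD, n = 6) in neurons, 51.1% ± 21.3 in microglia and 50.9% ± 16.2 in astrocytes over both genotypes, a difference that was not tested. By genotype it was 91.2% ± 12.2 (SD, n = 3) in WT and 93.6% ± 2.38 in KIN neurons, 37.8% ± 11.0 in WT and 64.1% ± 4.53 in KIN astrocytes, and 60.6% ± 25.3 in WT and 41.5% ± 14.8 in KIN microglia. In WT microglia the libraries differed most, with 16 of 50, 60 of 75 and 51 of 73 counts (32.0%, 80.0% and 69.9%; Wilson 95% intervals 20.8 to 45.8, 69.6 to 87.5 and 58.6 to 79.2). The highest of these lay above the lowest neuronal share, 77.3% in WT replicate 3. The neuronal level of *Camkk2* was thus nearly all *Camkk2-202*, which had 30, 26 and 17 counts in WT and 52, 38 and 56 in KIN neurons, where all other transcripts had 0, 1 and 5 counts in WT and 2, 3 and 5 in KIN.

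By transcript, 2 *Camkk2* transcripts were called lower in KIN astrocytes and 0 in KIN microglia, and no difference between the fractions was tested by transcript. In astrocytes *Camkk2-202* had 16, 13 and 16 counts in WT and 10, 10 and 12 in KIN (log2FC -0.35, SE 0.37, adjusted *p* 0.626). *Camkk2-204* (ENSMUST00000198029) had 13, 1 and 11 counts in WT and none in KIN, which is at least 7.35-fold lower with KIN set to a floor of 3 counts over the group (adjusted *p* 0.000173). *Camkk2-201* had 13, 4 and 5 counts in WT and 2, 2 and 0 in KIN (-2.25, SE 0.73, adjusted *p* 0.0329), and *Camkk2-209* (ENSMUST00000199830), with 5, 1 and 5 against 3, 2 and 4 counts, gave -0.16 (SE 0.81, adjusted *p* 0.941), where the counting interval of the ratio, 0.34 to 2.46, leaves room for a change in either direction. All transcripts other than *Camkk2-202* together were at 14.1, 4.22 and 9.39 CPM in WT and at 2.01, 2.56 and 2.30 CPM in KIN. *Camkk2-204* and *Camkk2-201* passed the filter on low counts through the WT libraries alone, so that the number of calls rests on transcripts that were high in WT. In astrocytes 2 of 4 *Camkk2* transcripts tested were called, where 8.36% of 15548 transcripts were, but 0 of 4 with DESeq2. Without WT replicate 1 or WT replicate 3, 0 were called, but there only 1 *Camkk2* transcript passed the filter on low counts.

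In microglia *Camkk2-202* had 16, 60 and 51 counts in WT and 26, 7 and 16 in KIN. Its log2FC of -1.63 (SE 0.43) had an adjusted *p* of 0.0501 that just missed the threshold, and the groups overlapped through WT replicate 1. *Camkk2-201* (0.03, SE 0.43, adjusted *p* 0.992) and *Camkk2-204* (-0.57, SE 0.56, adjusted *p* 0.836) gave no difference beyond the spread, and the other transcripts together were at 10.1, 7.42 and 9.32 CPM in WT and 8.32, 7.16 and 7.31 CPM in KIN. Thus 0 of the 3 *Camkk2* transcripts tested in microglia were called by edgeR, 1 had an unadjusted *p* under 0.05 and 0 were called by DESeq2, where 0.92% of 14126 transcripts were called by edgeR. In neurons *Camkk2-202*, the 1 transcript tested, gave 0.06 (SE 0.26, adjusted *p* 0.986), where 0.0181% of 5523 transcripts were called.

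**Figure D5:**
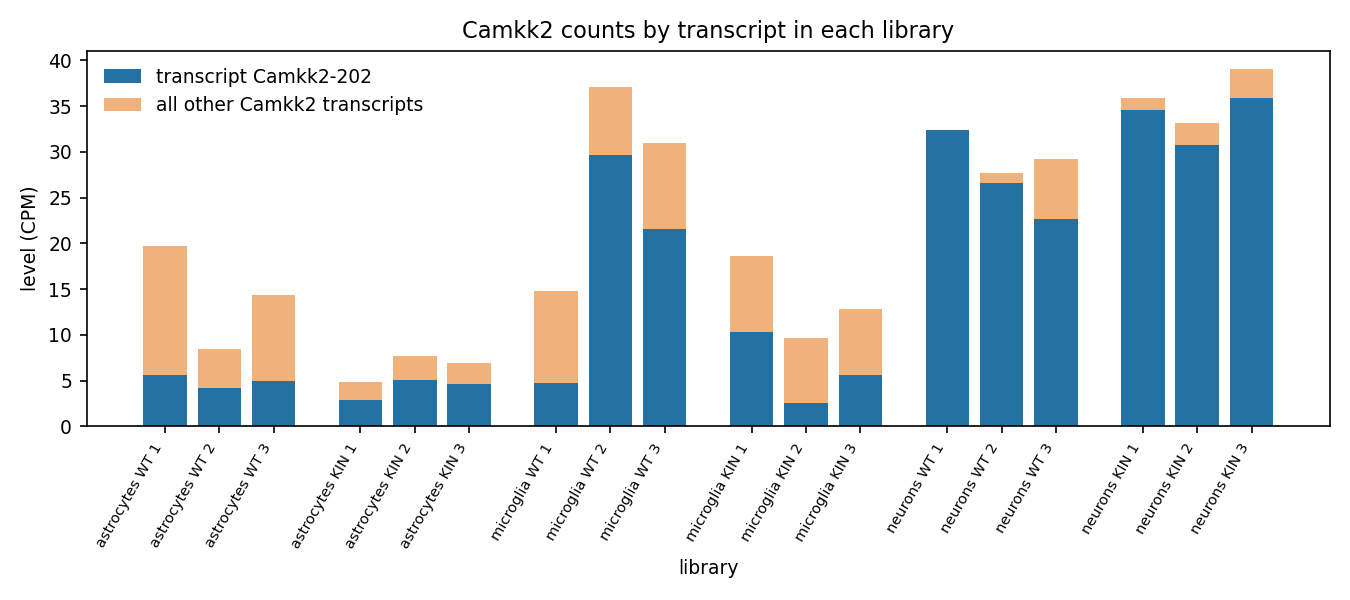
Level of *Camkk2-202* (blue) with that of all other *Camkk2* transcripts stacked on it (orange), in CPM, as one bar for each of the 18 libraries in groups of fraction and genotype. The other transcripts are at 2.01 to 2.56 CPM in KIN astrocytes against 4.22 to 14.1 CPM in WT, and *Camkk2-202* is at 22.6 to 35.9 CPM in neurons.

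Of the remaining members, 2 of 7 *Camk2a*, 5 of 15 *Camk2b* and 1 of 2 *Nrgn* transcripts passed the filter on low counts in astrocytes, *Camk2a-201* and those of *Camk2b* through WT libraries alone, so that their calls are a description and no count in support of the gene. In that fraction 2 *Camk2a* transcripts, *Camk2a-201* (ENSMUST00000025519) at -3.29 (SE 0.67, 35 counts in WT and 3 in KIN) and *Camk2a-203* (ENSMUST00000102888) at -2.31 (SE 0.45, 60 and 11 counts), were called lower, and so were all 5 *Camk2b* transcripts tested (*Camk2b-204*, *Camk2b-209*, *Camk2b-211*, *Camk2b-214* and ENSMUST00000109815), between -4.05 and -2.17, each with 19 to 28 counts in WT and 1 to 5 in KIN, where 8.36% of all transcripts were called. *Camk2b-211*, the most counted of them, gave -2.28 (SE 0.63). In microglia, where both genes were called, neither *Camk2a-201* (-1.95, SE 0.89, adjusted *p* 0.397) nor *Camk2a-203* (-1.49, SE 0.48, adjusted *p* 0.140) was, and no *Camk2b* transcript had enough counts to be tested. *Nrgn-201* (ENSMUST00000065668), which held 175 of 198 *Nrgn* counts, was lower in astrocytes (-1.95, SE 0.40) and in microglia (-3.59, SE 0.53, 71 counts in WT and 6 in KIN), where 0.92% of all transcripts were called. In microglia *Nrgn-201* passed the filter through WT libraries alone, so that this call too is a description and no count in support of the gene. The most counted transcripts of the calmodulins, *Calm2-201* (0.87, SE 0.37, adjusted *p* 0.127 in astrocytes, where the gene gave 0.14) and *Calm3-201* (-0.18, SE 0.25, adjusted *p* 0.737), were not called. *Camk2d-211* was tested in microglia alone (-0.76, SE 0.88, adjusted *p* 0.877), and *Camk4-204*, with 11 of the 28 *Camk4* counts, in no fraction.

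Whether the KIN effect itself differs between fractions was tested with interaction terms. Between neurons and astrocytes it differed for 1 of the 8 members tested, *Camk2b*, by 3.07 (SE 0.80, adjusted *p* 0.0262, edgeR), where 1.17% of 12358 genes were called and the median of all genes was 0.27. This was called in 4 of 6 other settings and in 5 of 12 fits without 1 library; the call was lost with DESeq2 (2.90, adjusted *p* 0.324), with a mean count filter of 10 (adjusted *p* 0.0995) and without WT astrocyte replicates 1 and 3, KIN astrocyte replicates 1 and 2, WT neuronal replicate 1 or KIN neuronal replicates 1 and 3 in turn (adjusted *p* 0.0571 to 0.140). *Camk2a* (2.61, SE 0.85, adjusted *p* 0.105), *Camkk2* (1.43, SE 0.43, adjusted *p* 0.0657) and *Nrgn* (3.12, SE 1.55, adjusted *p* 0.387) had the same sign and were not called. Without 1 library *Camk2a* ranged from 1.46 (without KIN neuronal replicate 1) to 3.72 (without WT neuronal replicate 2), and it was called without the latter (adjusted *p* 0.0319) and without WT astrocyte replicate 2 (2.99, adjusted *p* 0.0238). *Nrgn* ranged from 1.91 without KIN neuronal replicate 3 to 6.02 without WT neuronal replicate 2, and was not called in any of these fits (adjusted *p* 0.223 to 0.791). Between microglia and astrocytes 0 of 9 members were called by edgeR, 1 had an unadjusted *p* under 0.05 and 0 were called by DESeq2 (background 1.17% of 13277 genes), with -0.30 (SE 0.72, adjusted *p* 0.908) for *Camk2b*, 0.73 (SE 0.63, adjusted *p* 0.680) for *Camk2a* and -1.50 (SE 0.77, adjusted *p* 0.396) for *Nrgn*. Between neurons and microglia 0 of 8 were called by edgeR, 5 had an unadjusted *p* under 0.05 and 0 were called by DESeq2 (background 0.0778% of 11575 genes). The neuronal values rest on few counts. *Camk2a* had 7 counts in WT and 14 in KIN neurons. Its KIN to WT ratio was 1.23 with a 95% counting interval of 0.47 to 3.61, beside 0.20 (0.12 to 0.32) in astrocytes. *Camk2b* had 8 and 16 counts, a ratio of 1.23 with an interval of 0.50 to 3.33, beside 0.14 (0.086 to 0.226) in astrocytes. These intervals cover counting error and not the spread between libraries, so that they alone do not set the fractions apart. *Nrgn* had 1 and 4 counts, a ratio with an interval of 0.24 to 122 that includes the 0.26 of astrocytes, so that a loss of that size was not detectable for *Nrgn* at this depth.

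The other genes of the pathway were taken from lists of 32 symbols. Of 10 other CaM kinases and their regulators, 9 were tested in astrocytes with 1 lower, 7 in microglia with 2 lower, and 4 in neurons with 0. Of 17 calmodulin-activated enzymes and their regulators, 16 were tested in astrocytes with 5 lower, 14 in microglia with 1 lower, and 6 in neurons with 0. Of 5 calmodulin-storing proteins, all were tested in astrocytes with 2 lower and 1 higher, and 2 each in microglia and neurons with 0. Over all lists the median log2FC was -0.62 in astrocytes, -0.37 in microglia and 0.11 in neurons, beside -0.01, 0.00 and 0.04 for all genes. In astrocytes edgeR called 9 of the 30 tested, beside 8.85% of all genes, and DESeq2 called 2; in microglia edgeR called 3 of 23, beside 1.52% of all genes, and DESeq2 called 0. For the 12 genes tested in neurons edgeR called 0, 1 had an unadjusted *p* under 0.05 and DESeq2 called 0. Among the called genes named below, *Camkv*, *Itpka* and *Pde1b* in astrocytes passed the filter on low counts through WT libraries alone. So did *Camkv* and *Adcy1* in microglia. The numbers of calls thus rest in part on genes that were high in WT, and the lists were chosen with earlier results of these data known.

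*Adcy1*, a calmodulin-stimulated adenylate cyclase of neurons, fell in both glial fractions. It was at 26.4, 5.19 and 15.6 CPM in WT and at 1.73, 3.07 and 0.383 CPM in KIN astrocytes (-3.25, SE 0.44) and at 10.4, 0.495 and 8.05 CPM in WT and 1.59, 0.358 and 2.09 CPM in KIN microglia (-2.30, SE 0.60, adjusted *p* 0.0462, with overlap through WT replicate 2). *Camkv*, a kinase-like protein without catalytic activity, fell in astrocytes (-2.09, SE 0.53, adjusted *p* 0.00515) and in microglia (-4.14, SE 0.99, adjusted *p* 0.0278). In astrocytes *Itpka*, an inositol trisphosphate kinase (-3.27, SE 0.84), and *Pde1b*, a calmodulin-dependent phosphodiesterase (-1.82, SE 0.48), fell as well. In microglia *Camk2n1*, an inhibitor of CaMKII, fell from 23.7, 14.8 and 18.6 CPM to 7.93, 11.5 and 5.22 CPM (-1.24, SE 0.28, adjusted *p* 0.0223) without overlap. The 1 gene that rose was *Marcksl1*, a calmodulin-binding substrate of protein kinase C, from 4.23, 1.30 and 1.56 CPM in WT to 8.35, 12.3 and 9.57 CPM in KIN astrocytes (2.05, SE 0.36), where all KIN libraries lay above all WT libraries. With DESeq2 *Adcy1* (adjusted *p* 0.0207) and *Marcksl1* (0.00492) were called in astrocytes, and the other 6 of these 8 calls were lost: *Camkv*, *Itpka* and *Pde1b* in astrocytes (adjusted *p* 0.0891 to 0.127) and *Camk2n1*, *Camkv* and *Adcy1* in microglia (0.140 to 0.897).

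The genes whose levels were most like those of members over the 18 libraries were looked up among 10695 genes by the Pearson correlation of log2 CPM, as a description of libraries that share brains and depth. For *Nrgn* they were *Pacsin1* (*r* 0.905), *Cracdl* (*r* 0.899) and *Itpr1* (*r* 0.868). For *Camk2b* they included *Slc17a7* (*r* 0.880), which encodes the vesicular glutamate transporter of cortical excitatory neurons and is one of the neuron markers above, and *Eef1a2* (*r* 0.875). For *Calm2* they were *Hsd17b11* (*r* 0.884), *8030462N17Rik* (*r* 0.827) and *Pdxk* (*r* 0.816).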

How the data were processed

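RNA of 18 libraries was counted by the authors after removal of duplicate reads by molecular identifiers, trimming with Cutadapt 4.6, mapping with Bowtie2 2.4.4 to mm39 and counting with HTSeq 2.0.2 without regard to strand. The deposited counts are whole numbers per transcript without normalization. The authors' columns of fold changes and p-values between groups were not used, nor were 36 columns of other per-sample values. Some other genes, of the families and among those named by the rules, are not reported here.

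Counts were summed by symbol. Genes with at least 5 counts in at least 2 libraries of a fit entered edgeR 4.0.16 in R 4.3.3 (quasi-likelihood test, TMM scaling, Benjamini-Hochberg adjustment over all genes), fitted per fraction for KIN against WT, on the 9 WT libraries for fractions and on 12 libraries for interactions. A call needed an adjusted *p* not above 0.05 and a log2 fold change of 1 or more in size. Library sizes for CPM were scaled over all 18 libraries. Shares were compared with exact permutation tests in scipy 1.17.1. Wilson intervals and exact intervals of count ratios cover counting error only. The alternatives were DESeq2 1.42.0, its size factors, scaling without the 10 most abundant transcripts, no filter, a mean count filter of 10, the replicate number as a block, all 18 libraries in one fit, KIN in place of WT libraries and each library left out in turn. On simulated data with 200 changed genes the tests recovered 182 in astrocytes, 173 in microglia, 174 in neurons, 154 between fractions and 108, 102 and 96 in the interactions of microglia with astrocytes, neurons with astrocytes and neurons with microglia, with 3, 6, 7, 11, 1, 5 and 10 false calls in the same order. The recovered numbers are for the 200 changed genes as a whole. Recovery of genes with as few counts as most members had in neurons was not tested separately. The numbers therefore do not show that a difference in these members would have been found there. Transcripts were looked up in GENCODE of GRCm39, where 92 of 93 were found.

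The text names all 9 genes, every *Camkk2* transcript tested, for other members the most counted and any called transcripts, up to 4 called genes per direction of the pathway lists with the smallest adjusted *p*, and the 3 genes most like *Nrgn*, *Camk2b* and *Calm2*. Members and lists were chosen with earlier results of these data known.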

Additional observations from a re-analysis of the deposited data

Results flagged for a closer look

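The KIN effect on *Camk2b* differed between fractions. It was -2.81 in astrocytes and 0.05 in neurons on the log2 scale, and the interaction term of edgeR, neurons minus astrocytes, was 3.07 (SE 0.80, adjusted *p* 0.0262). The adjusted *p* over the other settings was between 0.0264 and 0.324, and the summed counts in neurons were 8 in WT and 16 in KIN.

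*Camkk2* lay on opposite sides of WT in the fractions. Every KIN astrocyte library was below every WT astrocyte library, and every KIN neuronal library was above every WT neuronal library, with a mean level 1.21 times that of WT, on the scaling over all 18 libraries. With the neuronal libraries scaled on their own, the groups ranged from 27.7 to 31.9 CPM in KIN and from 25.1 to 30.2 CPM in WT and overlapped. Every KIN library was above every WT library in this way for 11.7% of the genes tested in neurons. The difference of the effects as an interaction was 1.43 (SE 0.43, adjusted *p* 0.0657, edgeR).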

How the results depend on the processing

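The log2 fold changes of members, the counts of called members and *Camkk2* transcripts, and the 2 shares were recomputed under the other settings and without each library in turn. Single transcripts and comparisons among KIN fractions were not, and pathway genes and neuron markers were recomputed with DESeq2 alone. Of 476 log2 fold changes of members under the other settings, 439 kept their direction and their side of the threshold, 18 changed direction, 13 lost and 6 gained a call; without 1 library the numbers were 580, 34, 31 and 16 of 661. Of the counts of called members and *Camkk2* transcripts, 74 of 87 under other settings and 80 of 99 without 1 library stayed within 1.5 times. The cause was not tested for any of these.

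With no filter, 5 members were called in microglia. With DESeq2 or a mean count filter of 10, 0 members were called for neurons minus astrocytes. With KIN in place of WT libraries 2 members were called for neurons against astrocytes and 3 for astrocytes against microglia; the latter count was 2 with scaling without the 10 most abundant transcripts, 2 with a mean count filter of 10 and 4 by adjusted *p* alone. *Camkk2* transcripts called in astrocytes numbered 0 with DESeq2, 1 with no filter and 0 with a mean count filter of 10, where 1 was tested, and in microglia 1 with no filter and 1 with scaling without the 10 most abundant transcripts. Without 1 library, called members ranged from 1 to 4 for astrocytes against microglia, 0 to 3 for neurons minus astrocytes and 0 to 1 for neurons minus microglia, and *Camkk2* transcripts from 0 to 2 in astrocytes and 0 to 1 in microglia.

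Direction changed in KIN against WT of neurons for *Camk2b* (-0.017 with DESeq2, -0.12 with the replicate block) and *Camk2g* (0.029 with no filter, 0.013 in one fit). With KIN in place of WT libraries it changed for neurons against astrocytes in *Camk2a* (0.26) and *Camk2b* (0.44), for neurons against microglia in *Calm3* (1.09), *Camk2a* (0.43), *Camk2b* (1.65) and *Nrgn* (0.063), and for astrocytes against microglia in *Calm2* (0.16) and *Nrgn* (1.47). It also changed for neurons against microglia in *Calm3* (0.18 with a mean count filter of 10) and *Camkk2* (-0.0033 with no filter), for astrocytes against microglia in *Nrgn* (0.025 with DESeq2, 0.044 with a mean count filter of 10), and for neurons minus microglia in *Camk2g* (-0.0052 with DESeq2, -0.011 with its size factors).

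Without 1 library, values that crossed 0 ranged in KIN against WT from -0.056 to 0.37 for *Calm2* in astrocytes, -0.39 to 0.11 for *Camk2d* in microglia, and in neurons -0.84 to 0.15 for *Calm2*, -0.33 to 0.52 for *Camk2a*, -0.17 to 0.44 for *Camk2b*, -0.43 to 0.35 for *Camk2g* and -0.025 to 0.12 for *Camkk2*. Between WT fractions they ranged for neurons against microglia from -0.32 to 0.22 (*Calm3*) and -0.17 to 0.41 (*Camkk2*), and for astrocytes against microglia from -0.60 to 0.15 (*Camk4*) and -0.42 to 0.37 (*Nrgn*). Differences of the KIN effect ranged for microglia minus astrocytes from -0.91 to 0.12 (*Camk2b*) and -0.16 to 0.45 (*Camkk2*), for neurons minus astrocytes from -0.77 to 0.25 (*Calm2*) and -0.015 to 1.14 (*Camk2g*), and for neurons minus microglia from -0.23 to 0.86 (*Calm2*) and -0.56 to 0.58 (*Camk2g*). The difference in the CaMKII share between astrocytes and microglia ranged from -4.93 to 5.76 points, that in the *Calm2* share between neurons and astrocytes from -4.38 to 1.40 points, and that between neurons and microglia from -23.9 to -16.8 points, with an adjusted *p* of 0.00649 without WT neuronal replicate 3.

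The *Calm2* share of astrocytes minus microglia was -14.8 points (adjusted *p* 0.156) with the most counted transcripts, and -19.5 points with libraries paired by genotype and number as a replicate block (adjusted *p* 0.188). The numbers were not taken to pair the libraries: the correlation of deviations of same-numbered WT and KIN libraries was -0.10 to 0.07 in the 3 fractions. Between astrocytes and microglia, which came from the same brains, it was 0.079, 0.25 and 0.11 in WT and -0.019 to 0.029 in KIN libraries, and not every pair was above 0.1. With the block 4 members were called in astrocytes, 3 in microglia and 0 in neurons, 1198 genes in astrocytes against 1040 without it.

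Limits: the replicates are libraries of a few mice, so *p* values measure the spread between these libraries. The number of counts limits the neuronal fraction most, where 3 members could not be tested. DESeq2 called 353 genes in astrocytes and 38 in microglia, where edgeR called 1040 and 165. Without a filter the median of all genes moved to -0.13 in astrocytes and 0.26 in neurons, and in one fit to 0.24 in neurons, so that values near 0 have no firm direction.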
